A study of Mus musculus with 4 samples.

Results

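The genes described here were Thrsp and 8 further genes of fatty acid synthesis, Fasn, Acaca, Acly, Scd1, Scd2, Elovl6, Srebf1 and Me1, which made up 9 of the 32285 genes counted. They were taken as a named list, and all 9 were present in the files. They were followed in single cells of mouse mammary organoids, which had been captured in droplets as 4 libraries, 1 for each condition. The organoids came from virgin female mice that carried a germline truncating allele of Brca2 on 1 chromosome (Brca2mut/WT) or from wild-type littermates, and were left untreated (control) or exposed to hydroxyurea (HU), which stalls DNA replication. All 4 conditions shared the same route of freezing, thawing and a short culture before capture. The study worked with aged mice and describes single-cell captures from early and late passages of the organoids, whereas the labels of these libraries give neither age nor passage. The labels give 2 replicates per library and do not say which cells came from which. Since no condition had a second library, conditions could not be tested against each other, and the intervals given cover counting error only.

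Cells make fatty acids in the cytosol by exporting citrate from mitochondria, cleaving it to acetyl-CoA, carboxylating this to malonyl-CoA and condensing the units on a single large synthase, with NADPH as the reductant. The products are then elongated and desaturated before they enter membranes and triglycerides. The mammary alveolar epithelium is among the most lipogenic tissues of a mammal, because it makes milk fat during lactation, and Thrsp, a small acidic protein also called Spot14, is known in mouse for its need in full milk fat synthesis.

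Within each library, cells were assigned to a lineage by Krt14 and Areg. Basal cells had at least 500 CPM of Krt14, HR+ (hormone receptor-positive) luminal cells at least 300 CPM of Areg, and HR- luminal cells less than 300 CPM of each, where CPM is the UMIs (unique molecular identifiers) of a gene per 1000000 gene UMIs of a cell or of a sum of cells. Of 33268 cells, 17360 had 1000 to 6000 detected genes and under 5% mitochondrial UMIs. These held 14008 HR- luminal, 569 HR+ luminal and 2217 basal cells, with 2750 to 4209 HR- luminal cells and a median of 24718 to 27596 UMIs per library. Markers that were not used in the assignment were highest in their own lineage of every library for 6 of 6 basal, 6 of 7 HR- luminal (all but Aldh1a3) and 5 of 6 HR+ luminal genes (all but Prom1). Among the kept cells, 40 barcodes occurred in more than 1 library.

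Thrsp lies on the minus strand of chromosome 7 (97412938 to 97417730 on GRCm38, ENSMUSG00000035686) and had the steepest lineage pattern of the 9 genes. Its HR- luminal level was 57.9 CPM (95% interval 56.4 to 59.4, 6012 UMIs) for the wild-type control, 131.4 (129.0 to 133.9, 11281 UMIs) for wild-type HU, 124.8 (122.4 to 127.2, 10802 UMIs) for the Brca2mut/WT control and 146.2 (143.4 to 149.1, 10385 UMIs) for Brca2mut/WT HU. The same 4 libraries had 4.87, 12.5, 8.20 and 14.5 CPM in basal cells and 4.50, 9.98, 8.58 and 15.7 CPM in HR+ luminal cells. HR- luminal cells were therefore 10.1- to 15.2-fold above basal and 9.29- to 14.6-fold above HR+ luminal cells, with intervals that did not overlap in any library. When the cells of single antibody tags, described below, were left out in turn, with and without the cells of no single tag, the log2 ratio ran from 2.64 to 4.49 against basal cells (3.25 to 3.77 with all cells) and from 1.67 to 4.58 against HR+ luminal cells (3.14 to 3.72). After each cell was thinned to 5000 UMIs, Thrsp was detected in 18.2% to 33.6% of HR- luminal cells, against 2.36% to 4.86% of basal and 1.27% to 4.42% of HR+ luminal cells. Without thinning these shares were 43.5% to 64.3%, 8.16% to 17.4% and 10.1% to 17.0%, at median depths of 25058 to 28403, 20819 to 24059 and 26152 to 30184 UMIs. The low level in basal and HR+ luminal cells was higher in the HU library than in the control of each genotype, as it was in HR- luminal cells, and the part of free RNA or of mixed droplets in it was not tested.

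Adipocytes, the other cells of the mammary gland that express these genes strongly, were not visible in the HR- luminal sums. Of 6 adipocyte markers, Cidec and Lep had 0 UMIs in every lineage and library. The summed level of all 6 among HR- luminal cells was 0.0770, 0.0699, 0.185 and 0.127 CPM in the 4 libraries in the order above, with at most 6 UMIs of any marker in a library.

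The partner genes separated into those that shared the HR- luminal enrichment and those that did not. Srebf1 (chromosome 11, 60199089 to 60222581) encodes the sterol regulatory element-binding transcription factor that drives lipogenic genes. Its HR- luminal level was 123.7, 129.5, 120.4 and 144.3 CPM, with libraries ordered as for Thrsp, 2.51- to 2.76-fold above basal and 2.36- to 3.52-fold above HR+ luminal cells.

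Me1 (chromosome 9, 86581371 to 86695953), the cytosolic malic enzyme that supplies NADPH, had 876.3, 823.8, 1007 and 805.0 CPM in the same order. This was 6.72- to 8.46-fold above basal and 2.89- to 3.35-fold above HR+ luminal cells, and against basal cells it was second only to Thrsp among the 9. Acly (chromosome 11, 100476353 to 100528000), the ATP-citrate lyase that makes cytosolic acetyl-CoA, went the other way. It had 30.1, 31.7, 31.7 and 31.2 CPM in HR- luminal cells, 0.43 to 0.53 times the level of HR+ luminal cells, where it had 60.1 to 74.2 CPM, and 0.76 to 1.09 times that of basal cells.

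Fasn (chromosome 11, 120805846 to 120824547), the synthase itself, had 80.4, 76.9, 90.1 and 86.3 CPM in HR- luminal cells. It was 1.89- to 2.34-fold above basal cells and 1.13- to 1.31-fold above HR+ luminal cells. Acaca (chromosome 11, 84129672 to 84401651), the acetyl-CoA carboxylase of the committed step, had 32.1, 29.4, 30.7 and 30.9 CPM. It stood 1.63- to 2.66-fold above HR+ luminal cells but at 0.74 to 1.02 times the basal level, so the carboxylase and the synthase were ordered differently across the lineages.

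Elovl6 (chromosome 3, 129532355 to 129638495), which elongates the product of the synthase, had 25.2, 23.7, 26.2 and 26.7 CPM, at 1.34 to 2.05 times the basal and 0.98 to 1.85 times the HR+ luminal level. Scd1 (chromosome 19, 44394455 to 44407879) and Scd2 (chromosome 19, 44293674 to 44306864) are neighbouring stearoyl-CoA desaturases of similar sequence, between which counting may share reads. Scd1 had 388.7, 346.5, 373.8 and 396.7 CPM, 1.76- to 2.26-fold above basal and 1.98- to 2.37-fold above HR+ luminal cells. Scd2 had 235.4, 233.1, 256.7 and 281.3 CPM, only 1.10- to 1.41-fold above basal and at 0.66 to 0.97 times the HR+ luminal level. The desaturase gene pair thus differed in lineage, with Scd1 highest in HR- and Scd2 in HR+ luminal cells of every library, although the Scd2 intervals of the luminal lineages overlapped for the Brca2mut/WT control. For Scd1 the order depended on the cells kept in wild-type HU. Its log2 ratio of HR- to HR+ luminal cells there went from 1.05 to 0.46 without the cells of tag 2 in both lineages. It went to -0.23 when cells of no single tag were also left out. HR- luminal Scd1 in tag 2 of that library was 273.2 CPM, below the 346.5 CPM of all its HR- luminal cells. The HR+ luminal sum of that library held only 146 cells.

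Counted at 1.5-fold in every library, 5 of the 9 genes (Thrsp, Fasn, Scd1, Srebf1 and Me1) were higher in HR- luminal than in basal cells and 0 were lower, beside 10.9% of all 8046 genes compared that were higher and 14.2% that were lower. Against HR+ luminal cells 5 genes (Thrsp, Acaca, Scd1, Srebf1 and Me1) were higher and 1, Acly, was lower, beside 11.7% and 19.1% of 8023 genes. The count of 5 against HR+ luminal cells fell to 3 without the cells of antibody tag 2, where Acaca and Scd1 no longer passed for wild-type HU, and Acly was no longer past 1.5-fold in every library when tag 4 and the cells of no single tag were left out. Mid1ip1 (chromosome X, 10715013 to 10719690), the close paralog of Thrsp whose product also acts on acetyl-CoA carboxylase, did not share its lineage. It had 14.3 to 18.4 CPM in HR- luminal cells, 0.51 to 0.69 times the basal and 0.35 to 0.41 times the HR+ luminal level.

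**Figure D1:**
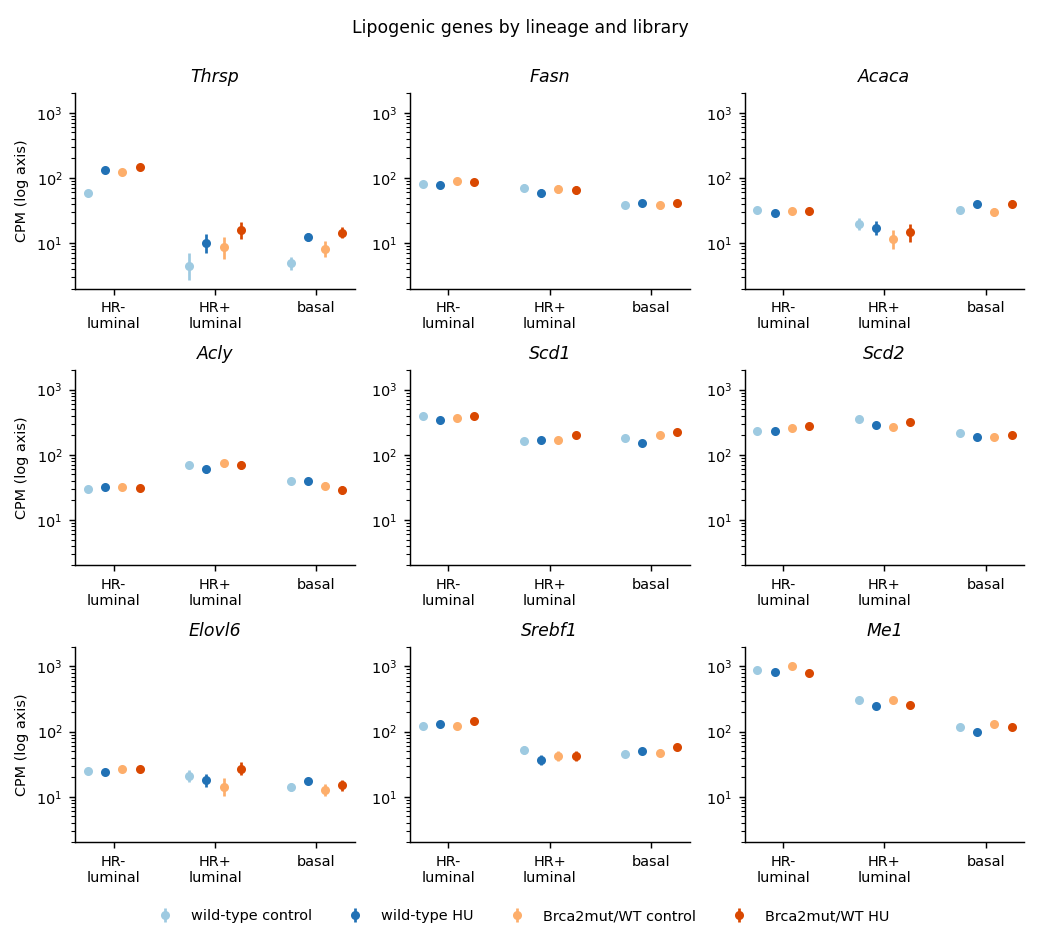
Level of each of the 9 genes in CPM on a log axis for HR- luminal, HR+ luminal and basal cells, with 1 point per library and bars for the exact Poisson 95% interval. Thrsp sits at 57.9 to 146.2 CPM in HR- luminal cells and at 4.50 to 15.7 CPM in the other lineages, whereas Acly is highest in HR+ luminal cells.

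Summed over all HR- luminal cells, the levels of the enzymes differed little between the 4 libraries, and that of Thrsp differed more. The highest library was 2.53-fold above the lowest for Thrsp and 1.05-fold (Acly) to 1.25-fold (Me1) above it for the other 8 genes. Of 7860 genes with enough counts, 32, or 0.407%, ranged at least as widely as Thrsp, whereas 17.7% (Me1) to 94.5% (Acly) ranged at least as widely as each of the others. The median gene had a range of 0.19 on the log2 scale, against 1.32 for Thrsp. In these sums the wild-type control was the library that stood apart, since the other 3 had Thrsp within 124.8 to 146.2 CPM. Within the antibody tags described below, it was lowest in tags 1, 2 and 4, at 48.2, 117.6 and 82.3 CPM. In tag 1 the wild-type and Brca2mut/WT controls had 48.2 and 64.3 CPM, against 93.3 and 103.2 with HU. In tag 3 the Brca2mut/WT control was lower, at 46.0 against 55.0 CPM. Some enzymes also differed more within tags than in the sums. Over the tags, the Brca2mut/WT control was at 0.81 to 1.98 times the wild-type control for Scd1 and 1.06 to 1.75 times for Me1. For Acaca it was at 0.96 to 1.03 times.

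In wild-type organoids Thrsp was 2.27-fold higher with HU than in the control (2.20 to 2.34), and 5 of 7674 genes had a ratio as large. It was the only member past 1.5-fold in that comparison, with 0 lower, where 0.469% of genes were higher and 0.717% lower. In Brca2mut/WT organoids the same ratio was 1.17 (1.14 to 1.20), and 388 of 7775 genes had a ratio as large. There, 0 of the 9 genes were higher and 0 lower, beside 0.334% and 0.759% of genes.

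Between genotypes, the Brca2mut/WT control was 2.16-fold above the wild-type control for Thrsp (2.09 to 2.22), a ratio reached by 11 of 7702 genes. Again it was the only member past 1.5-fold, with 0 lower, beside 0.571% higher and 0.26% lower of all genes, a call that was lost when antibody tag 2 and the cells of no single tag, described below, were left out. With HU in both genotypes the ratio was 1.11 (1.08 to 1.14), and 0 members were higher and 0 lower, beside 0.482% and 0.352% of genes. These 4 comparisons share libraries and are not independent of each other.

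In the sums over all HR- luminal cells, the other 8 genes stayed within a log2 ratio of -0.17 to 0.07 for HU in the wild type and -0.32 to 0.26 for HU in Brca2mut/WT. They stayed within -0.06 to 0.20 between controls and -0.03 to 0.27 between HU libraries. Their median ratios were -0.07, 0.02, 0.07 and 0.16, and the medians of all genes were 0.02, 0.01, 0.06 and 0.05. The widest single value was that of Me1, which was at 0.80 times (0.79 to 0.81) its control level with HU in Brca2mut/WT organoids and at 0.94 times (0.93 to 0.95) in the wild type. Srebf1 was 1.20-fold (1.17 to 1.23) higher with HU in Brca2mut/WT and 1.05-fold (1.02 to 1.07) in the wild type.

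**Figure D2:**
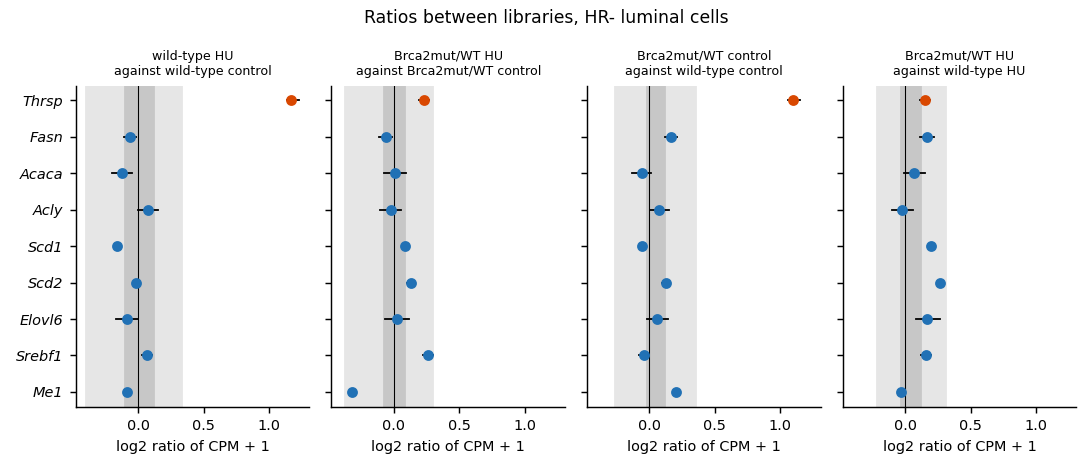
Log2 ratio of CPM + 1 in HR- luminal cells for the 9 genes in the 4 comparisons between libraries, with bars for the 95% counting interval. Dark and light grey bands hold the central 50% and 95% of all genes, and Thrsp lies outside them at 1.17 and 1.09 in the comparisons against the wild-type control and inside the light band in the other 2.

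Each library held 4 antibody tags, for which the labels give no key, so the cells of a tag formed an unlabelled pool. Thrsp differed between the pools of a library at least about as much as between libraries. The HR- luminal cells of tags 1, 2, 3 and 4 had 48.2, 117.6, 55.0 and 82.3 CPM for the wild-type control. The same tags of wild-type HU had 93.3, 248.0, 77.0 and 209.1 CPM. In the Brca2mut/WT control they had 64.3, 276.8, 46.0 and 187.1 CPM, and in Brca2mut/WT HU 103.2, 401.3, 78.6 and 212.7 CPM. Tag 2 was highest and tag 4 next in all 4 libraries, and the highest pool was 2.44- to 6.02-fold above the lowest, against 2.53-fold between libraries.

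The pools took unequal shares of the cells, and the share of tag 2 was lowest in the library with the lowest Thrsp. Of the tagged HR- luminal cells, tag 2 marked 4.79% for the wild-type control (182 cells), 18.3% for wild-type HU (579), 22.1% for the Brca2mut/WT control (694) and 16.8% for Brca2mut/WT HU (399). Compared within a tag number, the HU library was above its control for Thrsp in 4 of 4 tags of the wild type, by 1.40- to 2.54-fold, and in 4 of 4 tags of Brca2mut/WT, by 1.14- to 1.71-fold. That a tag number stands for the same source in different libraries is not stated. Between the controls, the Brca2mut/WT library was above the wild type by 1.33-, 2.35- and 2.27-fold in tags 1, 2 and 4 and below it, at 0.84 times, in tag 3.

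With each pool given equal weight, the log2 ratios of Thrsp were 1.04 for HU in the wild type, 0.47 for HU in Brca2mut/WT, 0.91 between controls and 0.34 between HU libraries, against 1.17, 0.23, 1.09 and 0.15 for the sums over all cells. Without tag 2, but with the cells of no single tag, the ratio between controls was 0.61, just above the log2 of 1.5-fold (0.58), and that between HU libraries 0.002. Over the cells of tags 1, 3 and 4 alone the ratio between controls was 0.53, below that limit, and the HU ratio in the wild type was 0.82. The HU ratio in Brca2mut/WT was thus larger within each of 3 tags (1.61-, 1.45- and 1.71-fold for tags 1, 2 and 3) than in the whole library, where it was 1.17-fold.

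The enzymes varied less between pools. The highest pool was 1.55- to 2.37-fold above the lowest for Scd1 and 1.10- to 1.93-fold for the other 7 genes. Scd1 was lowest in tag 4 of every library, at 175.2 to 324.5 CPM, although tag 4 was next to highest for Thrsp. In tag 2, Scd1 was at 250.4 and 273.2 CPM in the wild-type control and wild-type HU but at 495.8 and 502.4 CPM, the highest pool, in the Brca2mut/WT control and Brca2mut/WT HU.

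Fasn and Scd2 were also highest in tag 2 of every library but wild-type HU. Fasn had 104.7, 121.4 and 116.6 CPM and Scd2 292.4, 371.0 and 321.4 CPM in tag 2 of the wild-type control, Brca2mut/WT control and Brca2mut/WT HU. In tag 2 of wild-type HU, where Thrsp had 248.0 CPM, Fasn had 71.5 CPM, the lowest of the 4 pools, with an interval that overlapped those of tags 1 and 4. Acly was higher in tags 2 and 4 than in tags 1 and 3 of every library, over a narrow range of 26.9 to 39.9 CPM, and its 4 tags had the order of those of Thrsp in every library but Brca2mut/WT HU. Tspan8, a tetraspanin, had 307.8, 362.0 and 383.8 CPM in tag 2 of the wild-type control, Brca2mut/WT control and Brca2mut/WT HU but 94.7 CPM in tag 2 of wild-type HU.

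Me1 gave the most regular pattern among the enzymes. With HU its ratio to the control was 0.55 to 0.85 over the tags of Brca2mut/WT, with a counting interval below 1 in 4 of 4, and 0.92 to 1.03 over those of the wild type, with an interval below 1 in 1 of 4. Between controls it was higher in Brca2mut/WT in 4 of 4 tags, by 1.06- to 1.75-fold. 

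**Figure D3:**
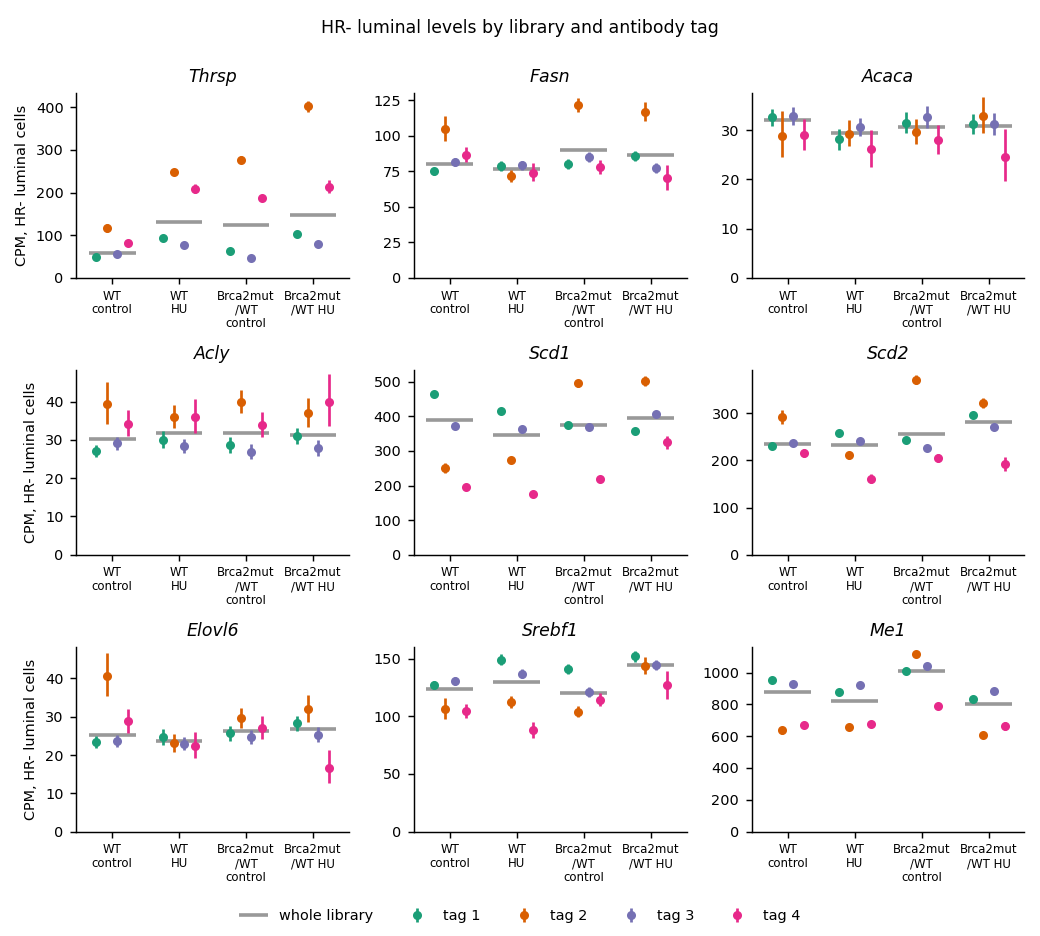
CPM in HR- luminal cells by library for each of the 4 antibody tags (points, with exact Poisson 95% intervals) and for the whole library (grey lines), for the 9 genes, with axes from 0. Thrsp runs from 46.0 to 401.3 CPM with tag 2 highest in every library, whereas Acaca stays within 24.5 to 32.9 CPM.

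Thrsp was also unevenly spread over single cells. In HR- luminal cells thinned to 5000 UMIs, the variance of the UMI count was 2.19 to 4.54 times the mean, where counting error alone gives a ratio near 1. The value of 4.54 was that of wild-type HU, where the highest cell held 51 Thrsp UMIs, against 12 to 15 in the other libraries. Those libraries had 2.19 to 2.98, and the part of that cell in the 4.54 was not tested. The ratio was higher for Scd1, at 5.09 to 6.76, and similar for Me1, at 2.66 to 3.02. Both have more counts, which raises this ratio, so it does not rank them against Thrsp by unevenness. Ratios nearer to 1 were found for Fasn (1.18 to 1.22), Acaca (1.03 to 1.09), Acly (1.02 to 1.07), Elovl6 (1.08 to 1.17), Srebf1 (1.26 to 1.34) and Scd2 (1.43 to 1.67). Acaca, Acly and Elovl6 had means of only 0.11 to 0.16 UMIs per cell. At such means the ratio stays near 1 even for an uneven gene, so it does not show that they were even.

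To describe which genes followed Thrsp from cell to cell, the Pearson correlation of log-scaled counts with Thrsp was computed within each library for its HR- luminal cells and averaged over the 4 libraries. Cells of a library share depth and pool, so the values carry no p, and in counts this sparse a weak correlation is no finding. The correlation was 0.135 for Fasn, 0.092 for Acly, 0.073 for Elovl6, 0.054 for Scd2, 0.011 for Me1, -0.017 for Srebf1, -0.020 for Acaca and -0.063 for Scd1. Fasn had rank 322 of 7202 genes and was the only member within the top 5% of genes, which it left without the cells of tag 1 and of no single tag. Scd1 had rank 6403.

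The 8 correlations had a median of 0.033, beside 0.008 for all 7202 genes, and 8.71% of all genes reached 0.1. Among the 28 pairs without Thrsp the median was 0.102, with 0.306 for Scd1 and Scd2, 0.264 for Fasn and Scd2 and 0.222 for Scd1 and Srebf1. These values were lower after thinning. With every cell thinned to 5000 UMIs, the median was 0.030 for those 28 pairs and 0.016 for the 8 with Thrsp, and the named pairs had 0.172, 0.112 and 0.092. Fasn then had 0.077 with Thrsp.

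Within tag pools, Fasn had 0.114 and Scd1 -0.077. Srebf1 changed sign there, to 0.056 (rank 1039), and was above 0 in 4 of 4 libraries, whereas over whole libraries it had rank 4953. Me1 had 0.042 within pools.

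In the other lineages the member closest to Thrsp was another one, at few counts of Thrsp. Thrsp had 55 to 239 UMIs per library in basal and 19 to 43 in HR+ luminal cells. Me1 had a correlation with Thrsp of 0.208 in basal and 0.152 in HR+ luminal cells, where Fasn had 0.011 and -0.108. Thrsp and Me1 were the 2 members with the steepest HR- luminal enrichment over basal cells, and whether basal and HR+ luminal cells that hold some HR- luminal RNA carry these values was not tested.

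**Figure D4:**
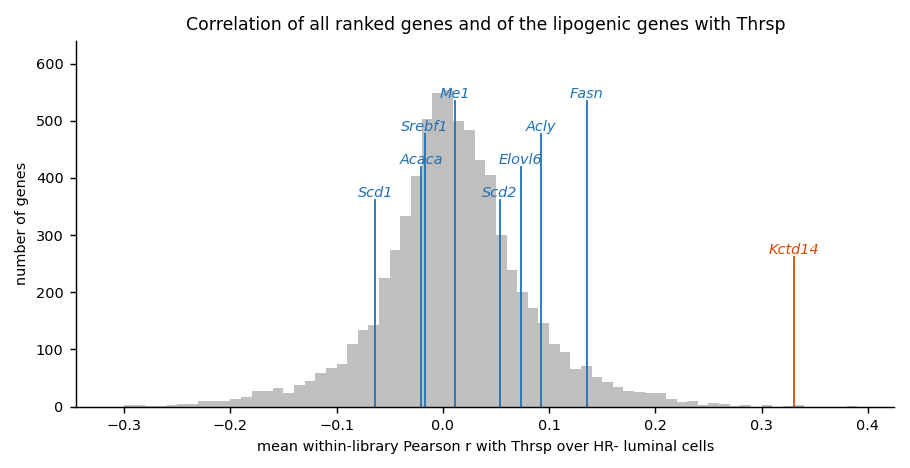
Histogram of the mean within-library correlation with Thrsp over HR- luminal cells for 7202 genes, with the 8 lipogenic genes (blue) and Kctd14 (orange) marked. The lipogenic genes spread from -0.063 (Scd1) to 0.135 (Fasn) within the body of the histogram, and Kctd14 is in its right tail with 0.330.

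Fasn and Thrsp were the pair with Thrsp that had the highest correlation, and their promoters, as RefSeq gives them on GRCm38.p6 from 250 bases before to 50 bases after the start, are shown where they hold a CCAAT box, the letters bound by nuclear factor Y, on either strand. Capitals mark the box, written ATTGG where it lies on the opposite strand of the gene.
Thrsp, chr7:97417612-97417641, minus strand, box 79 bases before the start: ccaaacgctgggATTGGctcaaaacagggc
Thrsp, chr7:97417585-97417614, minus strand, box 52 bases before the start: ggctgtgttgctCCAATggttgggctttgg
Fasn, chr11:120824620-120824649, minus strand, box 90 bases before the start: ccgcgcgccgccATTGGgccaccgagaacg
Fasn, chr11:120824592-120824621, minus strand, box 62 bases before the start: cggcctcggtgtCCAATtggtttcgatgtg

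A further ATTGG in Fasn overlaps the last of these boxes by its final letters. GENCODE M21 draws the 5′ end of Thrsp further upstream, at 97417730, so that both Thrsp boxes lie inside its gene model. Promoters were listed for 7 of the 9 genes, all but Scd1 and Scd2, with 10 promoters in all. A gene was counted where any of its promoters held the letters, while the shares of all promoters count each promoter by itself. CCAAT or ATTGG was found for 5 of the 7 (Acly, Fasn, Me1, Srebf1 and Thrsp) and in 37.4% of all 32851 promoters. The GC box GGGCGG was found for 3 of the 7 (Acly, Me1 and Srebf1) and in 35.7% of all promoters, on both strands. The E-box CACGTG (7.15% of all promoters) and the sterol regulatory element TCACCCCAC (0.551%) were found for 0 of the 7. Such matches describe letters in a window and not binding.

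Cells were also grouped by their own Thrsp counts. HR- luminal cells were thinned to 5000 UMIs and split by their Thrsp UMIs into 0 (1695 to 3342 cells per library), 1, 2, and 3 or more (93, 214, 240 and 243 cells in the same order of libraries). The other genes were then summed from all UMIs of these cells. Cells with 3 or more Thrsp UMIs were somewhat deeper, with a median of 27765 to 29923 UMIs against 24401 to 27525, and CPM removes that difference only on average.

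Fasn had 97.8, 88.5, 128.0 and 107.9 CPM in the Thrsp-high cells of the 4 libraries, against 77.1, 73.8, 83.2 and 79.6 CPM in cells without Thrsp. The ratio was 1.20 to 1.54, with a counting interval above 1 in 4 of 4 libraries. For Acly the ratio was 1.08 to 1.52, with an interval above 1 in 3 libraries. Scd1 had 316.5, 259.4, 362.6 and 383.7 CPM in Thrsp-high cells against 404.8, 375.6, 389.6 and 409.7 CPM, a ratio of 0.69 to 0.94 that was below 1 in 4 of 4 libraries.

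Me1 stood at 0.78 to 1.01 times its level in cells without Thrsp and was below 1 in 3 libraries. Elovl6 was at 1.05 to 1.27 times, Scd2 at 0.90 to 1.39 times, Srebf1 at 0.91 to 1.12 times and Acaca at 0.88 to 0.95 times that level. At 1.5-fold in every library, 0 of the 8 genes were higher and 0 lower in Thrsp-high cells, beside 0.311% and 1.54% of 7396 genes.

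The same groups were formed inside single tag pools with at least 20 Thrsp-high cells, which left 12 pools, the smallest with 24 such cells. Counted here by the ratio alone, without an interval, Fasn was above 1 in 10 of 12 pools (median ratio 1.25). Acly (1.21) and Elovl6 (1.20) were also above 1 in 10 of 12. Srebf1 was above 1 in 9 of 12 (1.07), Scd1 in 2 of 12 (0.81) and Me1 in 1 of 12 (0.92). Tspan8 did not keep its direction. It ran from 0.54 to 2.52 times over libraries, and was above 1 in 3 of 12 pools. Lalba, the milk whey gene of HR- luminal cells, ran from 0.54 to 1.61 times over libraries and was above 1 in 9 of 12 pools.

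**Figure D5:**
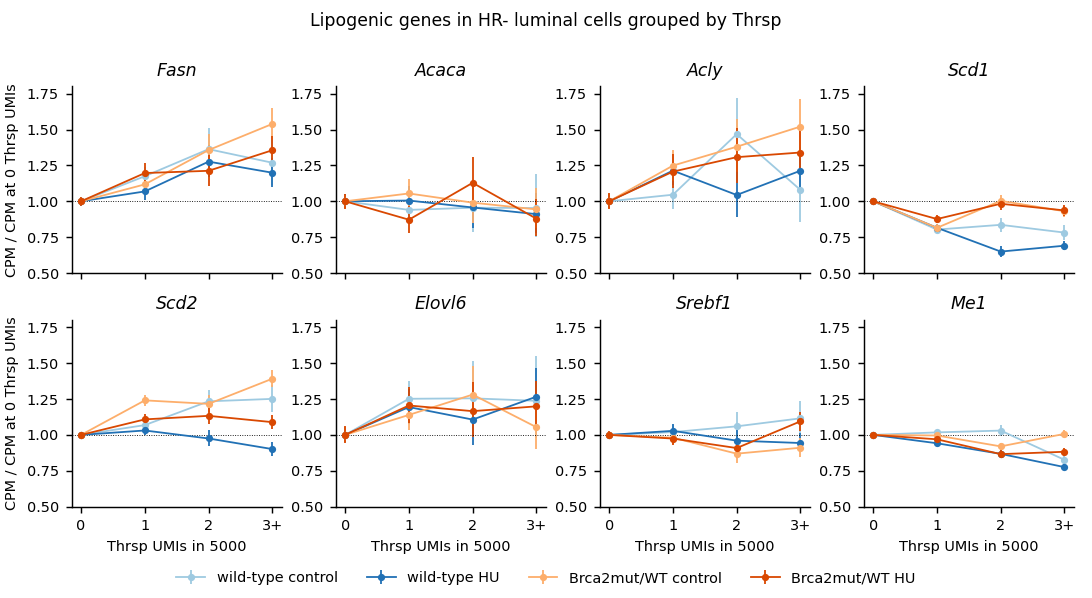
CPM of the 8 other genes in HR- luminal cells with 0, 1, 2, and 3 or more Thrsp UMIs per 5000 UMIs, divided by the level at 0, for the 4 libraries with 95% counting intervals; the vertical axis starts at 0.5. Fasn ends at 1.20 to 1.54 and Scd1 at 0.69 to 0.94 in the highest group.

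Elovl6, Acly, Fasn and Scd2 were raised more in cycling over other cells than Thrsp was in every library. The smallest gap was that between Scd2 (1.1915) and Thrsp (1.188) in the Brca2mut/WT control. Counting intervals of Scd2 and Thrsp overlapped in every library, and those of Fasn and Thrsp in all but wild-type HU. A cell was taken as cycling with at least 5 UMIs over 22 cell cycle genes in 5000 UMIs, which gave 206 to 284 cycling HR- luminal cells per library, and 254 to 368 cells lay within 2 UMIs of that limit. Elovl6 had 48.3, 43.5, 46.0 and 42.4 CPM in cycling cells against 23.3, 22.1, 24.3 and 25.5 CPM in the others, a ratio of 1.66 to 2.07. It was the only member at 1.5-fold in every library, beside 9.92% of 7724 genes, and 0 were lower, beside 2.03%.

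Acly was 1.47- to 1.60-fold and Fasn 1.21- to 1.52-fold higher in cycling cells, and Scd1 was at 0.54 to 0.75, Me1 at 0.80 to 0.85 and Srebf1 at 0.79 to 0.90 times the level of the other cells. Scd2 stood at 1.10 to 1.40 and Acaca at 1.06 to 1.31 times. Thrsp itself was 1.08- to 1.37-fold higher in cycling cells. The ratios of Elovl6, Acly and Fasn were thus above 1 and those of Scd1 and Me1 below 1 both in cycling and, apart from a single Me1 ratio of 1.01, in Thrsp-high cells of every library. Acaca went opposite ways, at 0.88 to 0.95 times in Thrsp-high cells against 1.06 to 1.31 times in cycling cells. Srebf1 and Scd2 kept no single direction in Thrsp-high cells, at 0.91 to 1.12 and 0.90 to 1.39 times. By the counting interval in Thrsp-high cells, however, Elovl6 was above 1 in only 2 libraries and Acly in 3, and Acaca was below 1 in 0. With cycling cells left out, the ratio of Thrsp for HU in the wild type was 1.17 on the log2 scale, as with them.

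The wider pathways were described from 6 lists of genes. Among regulators (9 of 14 genes ranked), 0 were in the top 5% by correlation with Thrsp, from -0.082 for Thra, a thyroid hormone receptor, to 0.124 for Insig1, which holds the sterol sensor in the endoplasmic reticulum. Mlxipl and Nr1h3, other known regulators of lipogenesis, had 0.83 to 1.11 and 1.10 to 1.97 CPM in HR- luminal cells and were too low to rank. Of the genes of substrate and NADPH supply, 1 of 8 was in the top 5%, Pgd of the pentose phosphate pathway with 0.133, and Mcat was lowest with 0.001.

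Of the genes for chain length, desaturation and acyl activation, 1 of 8 was in the top 5%, the acyl-CoA synthetase Acsl3 with 0.132, and the desaturase Fads1 had -0.158. Of the genes of triglyceride synthesis and the milk fat droplet, 0 of 7 were, from -0.064 for Xdh to 0.113 for Agpat2. Fatty acid oxidation had 0 of 8, from -0.083 for Acadm to 0.076 for Acadl.

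Over whole libraries without thinning, the list with the highest values was cholesterol synthesis, not fatty acid synthesis. Whether this order holds after thinning or within tag pools was not tested. Of its 16 genes, 4 were in the top 5% and the median correlation with Thrsp was 0.107, from 0.053 for Lss to 0.214 for Idi1, an isomerase of the isoprenoid branch. At 1.5-fold in every library, 0 of the 7 to 16 genes compared per list were higher or lower in Thrsp-high cells, beside 0.311% and 1.54% of all genes. A gene can pass in some libraries only. Fads1 had log2 ratios of -0.28 and -0.47 in the wild-type control and wild-type HU. It had -1.99 and -1.61 in the Brca2mut/WT control and Brca2mut/WT HU, and whether differences between tag pools enter these was not tested.

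The lists were also compared by lineage. Against basal cells, where 10.9% of all genes were higher and 14.2% lower, 3 of 7 genes of triglyceride synthesis and the milk fat droplet were higher in HR- luminal cells and 0 lower. Of the chain length and desaturation list 2 of 9 were higher and 1 lower, and of cholesterol synthesis 0 of 16 were higher and 2 lower. Regulators had 1 of 9 higher, substrate and NADPH supply 2 of 9 and fatty acid oxidation 1 of 8, each with 0 lower. Against HR+ luminal cells, where 11.7% of all genes were higher and 19.1% lower, 4 of 9 genes of the chain length and desaturation list were higher and 4 lower, and of cholesterol synthesis 0 of 16 were higher and 8 lower. Of triglyceride synthesis and the milk fat droplet, 2 of 9 were higher and 3 lower. Regulators had 1 of 10 higher and 4 lower, substrate and NADPH supply 1 of 9 and 3, and fatty acid oxidation 1 of 9 and 2. Many of these lineage counts are near the shares of all genes. In lists this small, counts of 1 or 2 genes are no result about a list. In the 4 comparisons between libraries, 0 of the 7 to 16 genes compared per list were past 1.5-fold in either direction. Of all genes compared, 0.334% to 0.571% were higher and 0.26% to 0.759% lower, so 0 in lists this small is no result about them. Thrsp, in 2 of the 4, was the only gene past the fold among those compared of the 9 and of these lists.

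Among the genes most like Thrsp by the mean correlation over 14008 HR- luminal cells in 4 libraries were Ucp2 (0.333), Kctd14 (0.330), Rps27l (0.322), Bst2 (0.309), Gm48882 (0.308), Mrps6 (0.301), Isg15 (0.290), Prdx1 (0.284) and 4931406C07Rik (0.276). Each of these was above Fasn, the highest lipogenic gene, in all 4 libraries. Those least like it were Ahnak (-0.298), Fau (-0.292), Cavin3 (-0.292), Bsg (-0.285) and Bhlhe41 (-0.285). All of these values are over whole libraries without thinning. Differences between tag pools can therefore enter them beside those between single cells, and how much was not tested.

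Kctd14 is also the next protein-coding gene on the side of the Thrsp start, while Ndufc2, on the other side, is nearer. Kctd14 lies on chromosome 7 from 97451323 to 97459557 on the opposite strand, with its start 33.6 kb from that of Thrsp, and the gene models do not overlap. Its HR- luminal level was 34.4, 46.0, 46.2 and 51.5 CPM in the same order of libraries, lowest for the wild-type control and highest for Brca2mut/WT HU, as for Thrsp. Within antibody tags it did not always follow Thrsp, which was higher with HU in every tag. With HU in the wild type, Kctd14 went from 26.6 to 47.7 CPM in tag 1 and from 32.6 to 41.9 in tag 3. In tag 2 it went from 54.5 to 53.0 CPM, and in tag 4 from 59.6 to 46.5. In basal cells it had 3.97 to 6.18 CPM and in HR+ luminal cells 4.29 to 6.96 CPM. Of 9 other protein-coding genes that lie at least partly within 250 kb of the start of Thrsp, 5 could be ranked and 3 were in the top 5% by correlation, Kctd14, Aamdc (0.165) and Ndufc2 (0.133), whereas Ints4 had 0.083 and Rsf1 0.025. The neighbours other than Kctd14 were chosen for description after their values were seen.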

How the data were processed

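Counts were taken as the authors deposited them: whole-number UMI counts per gene and cell, made with Cell Ranger on the mm10 mouse genome, without normalization. The methods name Cell Ranger 6.0.2 and the file headers 6.1.1. The 4 antibody tags were kept out of gene totals. Cells were filtered with the limits that the study's methods state, which left fewer cells (17360 of 33268) than the study describes, and no doublet caller was run. Cells belonged to a tag where it held at least 80% of at least 50 tag UMIs, which left 1531 HR- luminal cells without a single tag.

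Counts were summed per lineage and library and scaled to CPM, with exact Poisson intervals for sums and exact binomial intervals for ratios and shares (95%). Calls used log2(CPM + 1), a fold of 1.5 and at least 10 CPM. Correlations used log1p of counts per 10000. TMM (edgeR 4.0.16) and DESeq2 1.42.0 size factors served as alternatives in scaling only. Fold calls and correlations were tested on simulated data. Python 3.11.15 with numpy 2.4.6 and scipy 1.17.1 was used. Gene positions are from GENCODE M21, in which 32235 of 32285 gene IDs were found, and promoters from RefSeq.

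The named genes were the members, the extremes of each pathway list, the 10 genes most and 5 least like Thrsp, and Tspan8 and Lalba. A gene that this rule names is not reported here. Members and lists were chosen with earlier results of these data known.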

Additional observations from a re-analysis of the deposited data

Results flagged for a closer look

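Scd1 had HU ratios of opposite direction in the genotypes. In HR- luminal cells it was at 0.89 times the control with HU in the wild type and at 1.06 times in Brca2mut/WT, so that the log2 ratio in the wild type minus that in Brca2mut/WT was -0.25. Within tags the ratios ran from 0.89 to 1.09 in the wild type and from 0.96 to 1.49 in Brca2mut/WT, and the difference was not tested.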

How the results depend on the processing

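No paired analysis was possible because each condition is a single library. Of 217 counts of genes past a threshold recomputed under 24 alternatives, 209 stayed within 1.5 times the first value. Many of these counts were 0 at first, so their staying the same says little. Of the other values recomputed, 1266 stayed the same, 516 moved and 2 reversed. The count of genes higher in cycling cells went from 1 to 0 with a pseudocount of 10 CPM and to 0 with a limit of 10 UMIs. The count of genes higher in HR- than in HR+ luminal cells went from 5 to 3 without tag pool 2. The count in the top 5% by correlation went from 1 to 2 with no filter on low genes. Leaving out the cells of no single tag together with 1 tag, chosen after seeing the data, took the count in the top 5% to 0 (tag 1), the count higher than in HR+ luminal cells to 3 and that higher in the Brca2mut/WT than in the wild-type control from 1 to 0 (tag 2), and the count lower than in HR+ luminal cells from 1 to 0 (tag 4). Without tag 2 in this way, the log2 ratios of HR- to HR+ luminal cells in wild-type HU reversed to -0.043 for Acaca and -0.23 for Scd1. Before cells were left out, the HR+ luminal sum of that library held 146 cells. The cause of these changes was not tested. Forming the Thrsp groups within tag pools was also chosen after seeing the data, and left the count at 0. Keeping cells of over 6000 genes gave Thrsp log2 ratios of 1.24 for HU in the wild type and 0.46 in Brca2mut/WT. TMM factors of 0.98 to 1.02 moved no direction of Thrsp. Elovl6, Acaca and Acly had few UMIs per cell, so their correlations are limited by depth.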
